A study of Mus musculus with 6 samples.

Results

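The immediate-early transcription factors on the array were 10 genes, taken by gene symbol: *Fos*, *Fosb*, *Fosl2*, *Jun*, *Junb*, *Jund*, *Egr1*, *Egr2*, *Nr4a1* and *Ier2*. They were represented by 16 of the 46358 probes that carried a symbol, out of 27307 genes with one. Of these 16 probes, 10 probes of 9 genes were bright enough to be compared, and *Fosb* had no such probe.

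The hearts came from male C57BL/6J mice in which floxed *Clk4* alleles were deleted by tamoxifen (25 mg/kg per day for 5 days, started at 6 to 8 weeks of age in the study's mice) through α-MHC-MerCreMer, a Cre recombinase driven by a cardiomyocyte promoter (*Clk4*-cKO). All mice carried this deletion and received intravenous AAV9, injected at 5 weeks of age, that expressed mouse NEXN from a CMV promoter, which is not restricted to cardiomyocytes, from a vector backbone that also carries GFP. In 3 mice the vector coded for wild-type NEXN, an actin-binding Z-disc protein (NEXN-WT), and in the other 3 for NEXN with glutamate in place of a serine, a mimic of the phosphorylated form (NEXN-S437E). The comparison asks how myocardial RNA differed between the mimic and the wild-type protein in the absence of cardiomyocyte CLK4. The study's methods place its analysis of the cardiac phenotype 3 weeks after tamoxifen was begun, without naming the arrayed hearts, and hearts without a vector or with intact *Clk4* were not analysed here.

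Immediate-early genes are transcribed within minutes of a stimulus, without new protein synthesis, because the factors that drive them, such as SRF with its ternary complex partners and CREB, already sit in the cell. Their products are themselves transcription factors: FOS and JUN proteins pair to form AP-1, EGR proteins are zinc-finger factors, and NR4A1 is an orphan nuclear receptor. In the heart they are known as the first genes to respond to stretch and to neurohumoral stimulation, and they are also induced when tissue is handled or dissociated.

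The sequences just before the start of transcription are shown for *Egr2*, the member with the largest difference between the groups, and for *Fos* and *Nr4a1*, for which no difference was detected. They are RefSeq windows of build GRCm38.p6, from 250 bases before the annotated start to 50 bases after it, and are written 5′ to 3′ on the strand of the gene, which is the plus strand for all 3. Capitals mark the CArG box, the element bound by SRF, and TGACG or its complement CGTCA, the core of the cAMP response element bound by CREB. The regions are chr10:67537680-67537979 for *Egr2* (the most downstream of its 5 annotated starts), chr12:85473640-85473939 for *Fos* and chr15:101266596-101266895 for *Nr4a1*.
Egr2: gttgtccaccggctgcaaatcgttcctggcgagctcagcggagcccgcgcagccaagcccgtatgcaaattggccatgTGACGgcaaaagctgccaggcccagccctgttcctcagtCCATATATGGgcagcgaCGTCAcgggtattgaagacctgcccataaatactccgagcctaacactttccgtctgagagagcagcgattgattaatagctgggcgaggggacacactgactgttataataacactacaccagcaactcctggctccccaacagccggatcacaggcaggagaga
Fos: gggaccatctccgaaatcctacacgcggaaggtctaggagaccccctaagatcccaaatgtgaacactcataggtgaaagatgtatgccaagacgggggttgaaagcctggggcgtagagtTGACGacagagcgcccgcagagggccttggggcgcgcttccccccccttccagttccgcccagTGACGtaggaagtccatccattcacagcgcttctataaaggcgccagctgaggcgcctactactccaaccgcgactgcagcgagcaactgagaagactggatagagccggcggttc
Nr4a1: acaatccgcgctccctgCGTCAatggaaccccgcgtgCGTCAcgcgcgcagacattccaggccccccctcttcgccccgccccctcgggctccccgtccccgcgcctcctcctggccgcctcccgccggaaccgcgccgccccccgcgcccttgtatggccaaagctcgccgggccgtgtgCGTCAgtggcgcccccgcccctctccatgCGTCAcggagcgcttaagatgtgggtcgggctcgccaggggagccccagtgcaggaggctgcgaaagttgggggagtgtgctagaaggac

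The *Egr2* window held 1 CArG box, which began 133 bases before the start, and 2 TGACG sites that began 172 and 116 bases before it. The *Fos* window held 2 TGACG sites, 129 and 66 bases before the start, and the *Nr4a1* window held 4, of which the nearest was 40 bases before the start; neither held a CArG box within these 300 bases. Windows were available for 8 of the 10 members, and *Egr1* and *Ier2* had none. A CArG box was found for 1 of these 8 genes (*Egr2*, in 4 of its 5 windows, some of which overlap), against 1.81% of all 27025 genes with a window. TGACG was found for 5 of the 8 (*Egr2*, *Fos*, *Fosb*, *Junb* and *Nr4a1*), against 23.0% of all genes, and it was searched on both strands. The full element TGACGTCA, which contains TGACG, and the AP-1 element TGANTCA were found for 0 of the 8 genes, against 2.03% and 8.97% of all genes. A match of letters is a description of the window and does not show binding. Elements more than 250 bases before the start lie outside the windows, so a gene without a match may still carry one. Whether the motifs go with the differences between the groups was not tested.

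Across the 10 tested probes, *Egr2* and *Egr1* were lower with NEXN-S437E than with NEXN-WT at an unadjusted p of 0.05, and the other 8 probes did not pass it. By limma, 0 of the 10 passed an adjusted p of 0.05, a threshold that 0.148% of the 22998 probes tested on the array passed. One probe (*Egr2*) was lower at the study's own threshold of a 2-fold change with an unadjusted p of 0.05, against 2.03% of all tested probes. At the unadjusted p alone 2 of 10 were lower, against 8.57% of all tested probes, and 0 of 10 were higher, against 7.84%. The groups did not overlap for the same 2 probes, both lower, against 12.4% of all tested probes that were lower without overlap. In an exact permutation test of 3 arrays against 3 the smallest two-sided p is 0.1, so no single probe could pass 0.05 in that test. The methods' t-test put 0 of the 10 past an unadjusted or an adjusted p of 0.05, and with slide row as a block limma put 0 of the 10 past either.

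The arrays, 1 per heart and all on 1 slide, had 41.9% to 47.8% of their spots well above background, and no spot was saturated. One array stood apart: NEXN-WT replicate 1 differed from the other 2 NEXN-WT arrays by a mean of 0.37 and 0.43 on the log2 scale over all tested probes and from the NEXN-S437E arrays by 0.48 to 0.55, while the other arrays differed from one another by 0.19 to 0.32. It was the highest array for 6 of the 10 immediate-early probes. Row 2 of the slide held NEXN-S437E replicates 2 and 3, and row 1 held the remaining 4 arrays. *Clk4*, deleted in both groups, and *Nexn*, expressed from both vectors, do not check the labels here. The brightest *Clk4* probe differed by 0.05 (log2, adjusted p = 0.895) and the 2 *Nexn* probes by -0.06 and 0.06 (adjusted p = 0.915 and 0.903). All levels below are log2 signals relative to the 75th percentile of the probes well above background on every array, so a level is read within a probe and not between probes.

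**Figure D1:**
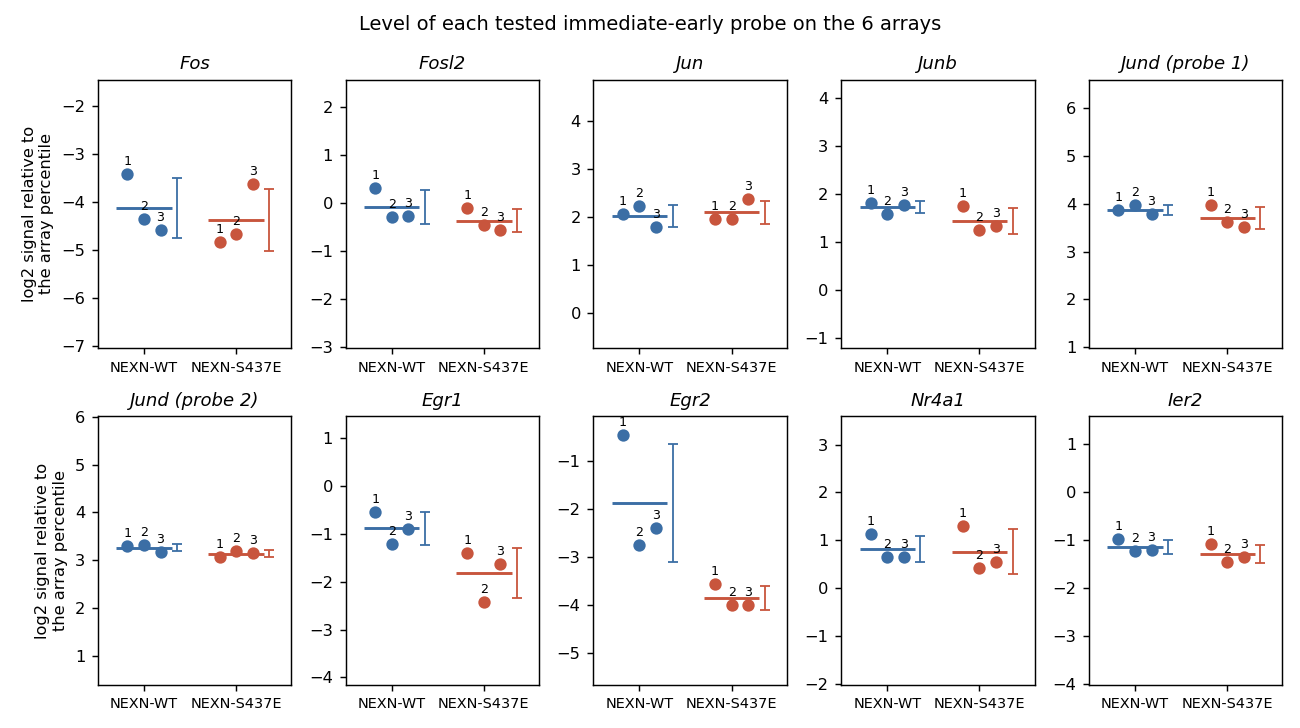
Level of each of the 10 tested immediate-early probes (y axis, log2 signal relative to the array's 75th percentile, the same span in every panel) on the 3 NEXN-WT and 3 NEXN-S437E arrays. Points are arrays with their replicate numbers, horizontal lines are group means and bars are ± 1 SD (n = 3). The 3 NEXN-S437E points lie below all NEXN-WT points only in the *Egr1* and *Egr2* panels.

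*Egr2*, a zinc-finger factor best known from myelination and from lymphocyte activation, had levels of -0.46, -2.74 and -2.39 on NEXN-WT arrays 1 to 3 (probe A_51_P173043, mm9 chr10:67004758-67004817). On NEXN-S437E arrays 1 to 3 the levels were -3.57, -4.00 and -4.00. Every NEXN-S437E array was below every NEXN-WT array, and NEXN-WT replicate 1 was more than 1 log2 unit above all others. The means were -1.86 ± 1.23 and -3.86 ± 0.25 (SD, n = 3), a level 3.98-fold lower with NEXN-S437E (log2 difference -1.99, SE 0.55, 95% interval -3.27 to -0.71, unadjusted p = 0.00751, adjusted p = 0.180). The probe was well above background on all 6 arrays. Its signal before scaling was low with NEXN-S437E, at 54.7 to 61.9. With normexp background correction the log2 difference over all 6 arrays was -1.30 (SE 0.39, adjusted p = 0.177). Without NEXN-WT replicate 1 the log2 difference was -1.29 (SE 0.19, adjusted p = 0.0664). Within row 1 of the slide it was -1.70, with a single NEXN-S437E array, and slide row as a block gave an unadjusted p of 0.0888. In the normalized values that the authors deposited the groups did not overlap either, with 9.47, 7.18 and 7.57 against 6.44, 5.98 and 5.96.

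*Egr1*, the widely induced member of the same family, had levels of -0.54, -1.22 and -0.90 with NEXN-WT and of -1.41, -2.42 and -1.63 with NEXN-S437E (probe A_51_P367866). The groups did not overlap, and the gap between the lowest NEXN-WT array and the highest NEXN-S437E array was narrow. The means were -0.89 ± 0.34 and -1.82 ± 0.53 (SD, n = 3). The level was 1.91-fold lower with NEXN-S437E (log2 difference -0.93, SE 0.29, 95% interval -1.62 to -0.25, unadjusted p = 0.0143, adjusted p = 0.214). Within row 1 of the slide the log2 difference was -0.52, and with slide row as a block it had an unadjusted p of 0.225. Without NEXN-S437E replicate 2, the lowest array, it was -0.63 (adjusted p = 0.474). Both *Egr1* and *Egr2* gave the smallest p that the exact permutation test allows, 0.1.

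The FOS proteins are the AP-1 subunits that cannot pair with themselves. *Fos*, the prototype of the class, had levels of -3.41, -4.36 and -4.60 with NEXN-WT and of -4.84, -4.66 and -3.64 with NEXN-S437E (probe A_55_P2910184, mm9 chr12:86818118-86818177). The highest arrays were NEXN-WT replicate 1 and NEXN-S437E replicate 3, the groups overlapped, and the spread within each group (SD 0.63 and 0.65, n = 3) was larger than the difference between them (-0.26, SE 0.40, 95% interval -1.20 to 0.68, adjusted p = 0.759). Neither its sign nor its size was stable: it was 0.10 without NEXN-WT replicate 1, 0.033 with normexp background correction and -0.72 with slide row as a block (adjusted p = 0.618). The interval reaches past a 2-fold decrease, so a difference of that size could not be told from none with these arrays.

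*Fosl2*, which codes for the FOS-related antigen FRA2, had levels of 0.32, -0.28 and -0.28 with NEXN-WT and of -0.10, -0.46 and -0.56 with NEXN-S437E (probe A_55_P2803815). NEXN-S437E replicate 1 lay among the NEXN-WT values, and the log2 difference was -0.29 (SE 0.21, 95% interval -0.79 to 0.21, adjusted p = 0.505). It was -0.091 without NEXN-WT replicate 1 and -0.020 with slide row as a block. The other *Fosl2* probe was dim on all 6 arrays (well above background on 0). Of the 2 *Fosb* probes, 1 was well above background on NEXN-WT replicate 1 alone and the other on no array, so *Fosb* was not compared.

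The JUN proteins pair with FOS or with one another. *Jun* had levels of 2.07, 2.23 and 1.78 with NEXN-WT and of 1.96, 1.96 and 2.38 with NEXN-S437E. It was the only tested member with a difference above 0 (0.07, SE 0.18, 95% interval -0.36 to 0.50, adjusted p = 0.857), and quantile normalization and the deposited values put it at -0.0089 and -0.0079. *Junb*, an AP-1 subunit often opposed to *Jun* in growth control, had levels of 1.82, 1.59 and 1.78 with NEXN-WT and of 1.76, 1.26 and 1.33 with NEXN-S437E. NEXN-S437E replicate 1 lay within the NEXN-WT range and the other 2 below it (log2 difference -0.28, SE 0.17, 95% interval -0.68 to 0.12, adjusted p = 0.437). Within row 1 of the slide the *Junb* difference was 0.03, and without NEXN-S437E replicate 1 it was -0.43 (unadjusted p = 0.0252, adjusted p = 0.295). Of the other *Junb* probes, 1 was well above background on NEXN-WT replicates 1 and 3 and the other on no array.

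*Jund*, the JUN gene that is expressed without a stimulus in most tissues, had 2 tested probes. Its first probe (A_51_P357744) had levels of 3.86, 3.98 and 3.77 with NEXN-WT and of 3.96, 3.62 and 3.51 with NEXN-S437E (log2 difference -0.17, SE 0.16, 95% interval -0.54 to 0.20, adjusted p = 0.598). Its second probe (A_55_P2892246) had 3.30, 3.33 and 3.18 against 3.06, 3.20 and 3.15 (log2 difference -0.13, SE 0.12, 95% interval -0.42 to 0.16, adjusted p = 0.612). Both probes overlapped between the groups on this scale. Within row 1 of the slide the groups differed by 0.09 and -0.21. In the deposited values the second probe did not overlap, with a mean of 13.29 for NEXN-WT and of 13.00 for NEXN-S437E.

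*Nr4a1*, whose product NUR77 acts without a known natural ligand, had levels of 1.13, 0.65 and 0.66 with NEXN-WT and of 1.30, 0.43 and 0.55 with NEXN-S437E. Replicate 1 of each group was the higher array and the groups overlapped (log2 difference -0.05, SE 0.26, 95% interval -0.66 to 0.55, adjusted p = 0.927). Its sign was not stable either, at 0.49 with slide row as a block (adjusted p = 0.540) and -0.32 without NEXN-S437E replicate 1 (adjusted p = 0.467). *Ier2*, an early-response nuclear protein, had levels of -0.99, -1.24 and -1.22 with NEXN-WT and of -1.09, -1.46 and -1.35 with NEXN-S437E (log2 difference -0.15, SE 0.15, 95% interval -0.50 to 0.21, adjusted p = 0.638). The second *Ier2* probe was too dim to compare, well above background on 0 of 6 arrays.

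**Figure D2:**
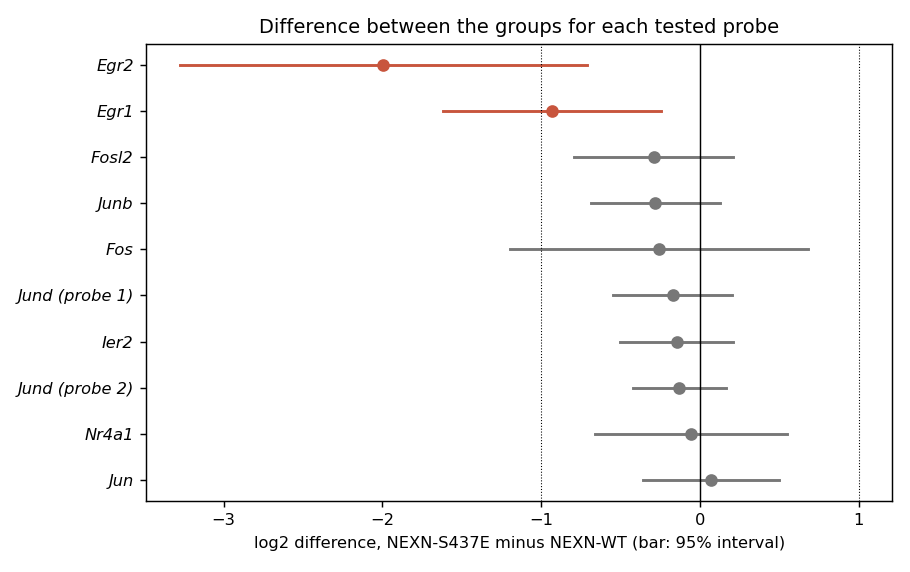
Log2 difference between NEXN-S437E and NEXN-WT (x axis) for each tested probe, with its 95% interval from limma. Red marks an unadjusted p under 0.05 and dotted lines mark a 2-fold change. The intervals of *Egr2* and *Egr1* lie below 0, and those of the other 8 probes include 0.

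The members differed in how far they moved within a group. The range over the 3 NEXN-WT arrays was 2.29 log2 units for *Egr2* and 1.18 for *Fos*, against 0.14 for the second *Jund* probe. In the NEXN-S437E group it was 0.44 for *Egr2*, 1.21 for *Fos* and 1.01 for *Egr1*. The median SD over the 10 probes was 0.25 in both groups, against 0.23 and 0.16 over all tested probes. The median log2 difference of the 10 probes was -0.21, with 9 of them below 0, against a median of 0.01 and 48.7% below 0 over all tested probes. Without NEXN-WT replicate 1 the median was -0.10, with 7 of 10 below 0. With slide row as a block 6 of 10 were below 0.

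The closest pair of members over the 6 arrays was *Junb* and *Ier2*, whose centred levels differed by a root mean square of 0.10 log2 units. Of all genes outside the set, those nearest to *Fos* by this measure were *Zfp946*, *Usp15*, *Usp47*, *Dclk1* and *Zfp967* (0.09 to 0.15). Those nearest to *Egr1* were *Col6a2*, which codes for a chain of collagen VI, *Apol9a*, *Dync2h1*, *Pak1* and *Gm13304* (0.15 to 0.19). The measure covers 6 arrays and describes likeness only.

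The relatives of *Egr1*, *Egr2* and *Nr4a1* and the NAB corepressors were listed as 7 genes, of which 4 were bright enough to test. Of these, *Nr4a2* and *Nab2* were lower at an unadjusted p of 0.05 and 0 were higher, against 8.57% and 7.84% of all tested probes. None passed the adjusted p. *Egr3* also passed the unadjusted p, but it is not counted as lower for the reason given next. *Egr3* had levels of -2.90, -5.16 and -4.42 with NEXN-WT and of -5.29, -5.84 and -5.08 with NEXN-S437E. The NEXN-WT value of replicate 2 lay among the NEXN-S437E values, and 1 of the NEXN-S437E arrays was not well above background, so the probe was tested only through the group in which it was brighter (log2 difference -1.25, SE 0.53, adjusted p = 0.303). *Nr4a2*, the paralogue of *Nr4a1*, had levels of -2.67, -3.58 and -4.08 against -4.35, -4.79 and -4.14 (log2 difference -0.98, SE 0.35, adjusted p = 0.251); its dimmer probe gave -0.68. The groups did not overlap for the brighter probe, by a narrow gap. *Nab2*, which binds EGR proteins and represses them, had 0.31, 0.32 and 0.31 against 0.09, -0.24 and -0.12 (log2 difference -0.40, SE 0.14, adjusted p = 0.236). *Wt1*, a related zinc-finger gene, had a log2 difference of 0.15 (adjusted p = 0.658). Without NEXN-WT replicate 1, 2 of the 4 were lower at the unadjusted p (*Nr4a2* and *Nab2*), and *Egr3* had a log2 difference of -0.62 and *Nr4a2* of -0.59. Without that array 13.2% of all tested probes passed the unadjusted p in either direction.

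**Figure D3:**
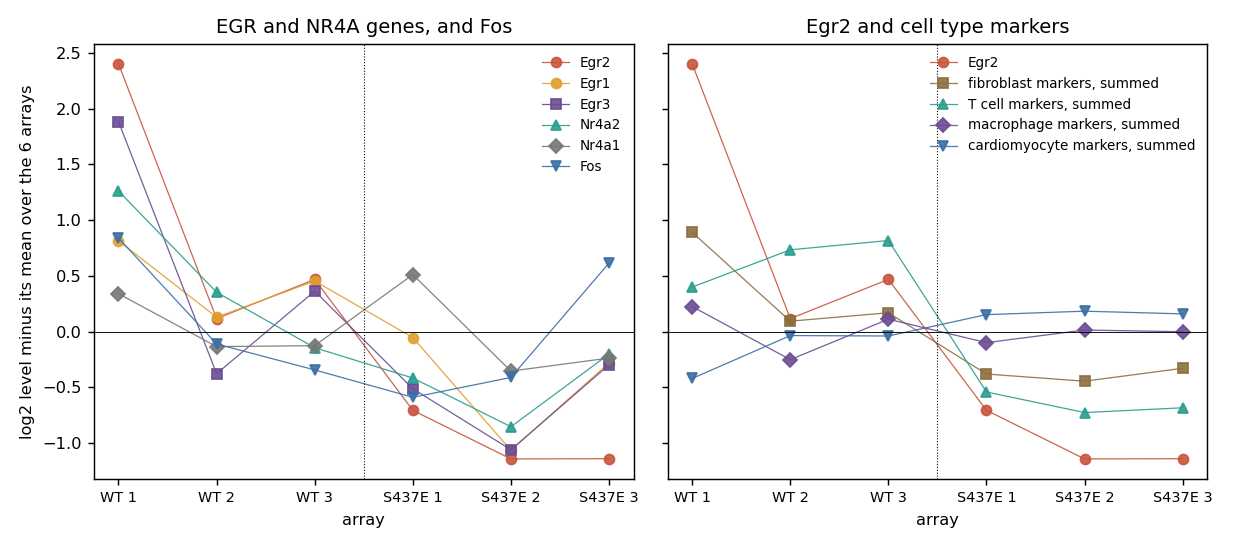
Log2 level on each array minus its own mean over the 6 arrays (y axis) for *Egr2*, *Egr1*, *Egr3*, *Nr4a2*, *Nr4a1* and *Fos* (left) and for *Egr2* beside the summed levels of 4 lists of cell type markers (right). Thin lines join the points of a gene or list as a guide, since arrays have no order. NEXN-WT replicate 1 is the highest array for *Egr2*, *Egr1*, *Egr3*, *Nr4a2*, *Fos* and the fibroblast and macrophage markers. It is not the highest for *Nr4a1* or the T cell or cardiomyocyte markers.

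Summed markers of some other cell types also did not overlap between the groups. Within NEXN-WT the fibroblast, macrophage and B and plasma cell sums were highest on replicate 1, as *Egr1* and *Egr2* were. The cardiomyocyte, T cell, NK, endothelial, smooth muscle and erythrocyte sums were lowest there. The summed level of 8 fibroblast markers, on a linear scale relative to the array percentile, was 105 to 183 with NEXN-WT and 72.5 to 78.6 with NEXN-S437E. Of these 8 markers, 6 were lower at an unadjusted p of 0.05 with all arrays, against 8.57% of all tested probes, and 0 passed the adjusted p. The same 6 were lower without NEXN-WT replicate 1, where 13.2% of all tested probes passed in either direction. There *Postn* (adjusted p = 0.00545), *Col1a1* (0.0230) and *Col3a1* (0.0272) passed the adjusted p, which 127 of the 22998 tested probes passed. *Col1a1* differed by -1.90 (-1.48 without that array) and *Postn*, a marker of activated fibroblasts, by -3.06 (-2.17), while *Dcn* and *Tcf21* did not pass. The summed level of the 6 tested T cell markers was 0.523 to 0.698 against 0.239 to 0.272. It includes *Cd3g*, which was well above background with NEXN-WT only and was tested through that group, so no test of it is used. Of the others, *Cd2*, *Cd3d*, *Cd3e* and *Lck* were lower at the unadjusted p, against 8.57% of all tested probes, and *Cd4* did not pass. *Lck* (adjusted p = 0.0124) and *Cd3d* (0.0269) passed the adjusted p, against 0.148% of all tested probes. With slide row as a block, or by the methods' t-test, no probe of the array passed it. Summed levels of 3 NK and cytotoxic markers (0.243 to 0.697 against 0.105 to 0.111) and of 3 B and plasma cell markers (0.152 to 0.203 against 0.071 to 0.082) did not overlap either, and those of 8 cardiomyocyte markers lay the other way (290 to 379 against 432 to 441). Of the cardiomyocyte markers 2 were higher at the unadjusted p, against 7.84% of all tested probes, and 0 passed the adjusted p. *Mzb1*, in the B and plasma cell list, differed by 0.08 (adjusted p = 0.868). One NK marker (*Nkg7*, adjusted p = 0.0453) passed the adjusted p and was lower. *Jchain*, part of the B and plasma cell sum, was well above background with NEXN-WT only, so no test of it is used. Macrophage, neutrophil, endothelial, smooth muscle and erythrocyte sums overlapped between the groups. The part of these markers in the *Egr1* and *Egr2* differences was not tested. In whole myocardium, fewer cells of a type and less RNA per cell cannot be told apart.

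Among 12 tested AP-1 partners, 1 was lower at the unadjusted p and 0 were higher, a share near the 8.57% of all tested probes. This was *Batf*, an AP-1 factor of lymphocytes (log2 difference -0.43, adjusted p = 0.267), and it did not pass without NEXN-WT replicate 1, where *Batf2* did (-0.57). *Atf3*, a stress-induced partner of JUN, differed by -0.43 (adjusted p = 0.366), *Atf7* by -0.24 (adjusted p = 0.400) and *Mafg* by -0.21 (adjusted p = 0.437). *Maf* did not pass by its brightest probe (-0.17), though a dimmer one gave -0.58 (unadjusted p = 0.00447, adjusted p = 0.162). The median of this list was -0.12, and -0.059 without NEXN-WT replicate 1.

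Among 41 tested other early-response genes, 5 were lower and 1 was higher at the unadjusted p, against 8.57% and 7.84% of all tested probes. The gene that rose was *Rgs2*, a regulator that shuts off Gq signalling, with levels of -0.06, -0.06 and -0.29 with NEXN-WT and of 0.95, 0.93 and 0.89 with NEXN-S437E. The groups were far apart relative to their spread (log2 difference 1.06, SE 0.13, adjusted p = 0.0438). No probe of the array passed the adjusted p with slide row as a block or by the methods' t-test, so *Rgs2* did not either. The lower genes were *Id2*, an inhibitor of bHLH factors (-1.09, adjusted p = 0.144), the kinase genes *Pim1* (-0.67, adjusted p = 0.144) and *Plk2* (-0.45, adjusted p = 0.241), *Hbegf*, an EGF receptor ligand (-0.45, adjusted p = 0.274), and *Socs3*, a feedback inhibitor of cytokine receptors (-0.33, adjusted p = 0.260). *Hbegf* and *Socs3* fall outside the rule for named genes and were named after their values were seen. Without NEXN-WT replicate 1, 6 were lower, 4 of them shared, and 3 were higher, where 13.2% of all tested probes passed in either direction. Dimmer probes of *Btg1* (-1.63, adjusted p = 0.145) and *Irf1* (-0.60, adjusted p = 0.240) passed the unadjusted p where the brightest did not.

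Among 17 tested feedback inhibitors, 2 were lower at the unadjusted p, *Dusp2* and *Dusp6*, and the probes of *Zfp36l1* passed it in opposite directions; 8.57% of all tested probes were lower. *Dusp2*, a MAP kinase phosphatase abundant in lymphocytes, had levels of -3.02, -3.02 and -2.97 with NEXN-WT and of -3.89, -4.64 and -4.62 with NEXN-S437E. The groups did not overlap (log2 difference -1.38, SE 0.22, adjusted p = 0.0891; -1.39 without NEXN-WT replicate 1). *Dusp6*, the ERK-specific phosphatase, differed by -0.35 (adjusted p = 0.286), and *Dusp14* by -0.77 (adjusted p = 0.333), or -0.32 without NEXN-WT replicate 1. *Zfp36l1*, which codes for an mRNA decay factor, had 2 probes that disagreed, at -0.43 and 0.46 (adjusted p = 0.274 and 0.170), so no direction is given for it. Without NEXN-WT replicate 1, 1 of the 17 was lower by its brightest probe (*Dusp2*), where 13.2% of all tested probes passed in either direction.

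The genes that act upstream of the immediate-early factors were listed as transcription factors and kinases, to be read against 8.57% of all tested probes lower and 7.84% higher. Of 16 upstream transcription factors, 2 were lower at the unadjusted p and 0 were higher: *Crtc3*, a CREB coactivator (-0.50, adjusted p = 0.170), and *Elk4*, a ternary complex factor (-0.35, adjusted p = 0.293), of which *Elk4* did not pass without NEXN-WT replicate 1. *Elk3* differed by -0.33 (adjusted p = 0.327), and *Mkl1*, an SRF coactivator, by -0.36 (adjusted p = 0.409), or -0.16 without that array. Of 26 upstream kinases, 1 was lower and 0 were higher. This was *Mapk7*, which codes for ERK5 (-0.54, SE 0.15, adjusted p = 0.179). *Mapk10*, *Map2k6* and *Rps6ka1* differed by 0.53, 0.44 and -0.23 and did not pass, and without NEXN-WT replicate 1 by 0.30, 0.21 and -0.30. A dimmer probe of *Rps6ka3* was lower (-0.46, unadjusted p = 0.0149). The medians of the lists of factors and kinases were -0.17 and 0.13, and -0.14 and 0.012 without NEXN-WT replicate 1. These are RNA levels, and the phosphorylation that activates the kinases is not measured by them.

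Of 19 tested textbook targets of AP-1 and EGR1, 2 were lower and 1 was higher at the unadjusted p, shares near the 8.57% and 7.84% of all tested probes. *Timp1*, a secreted inhibitor of metalloproteinases, had levels of 2.67, 1.01 and 0.78 with NEXN-WT and of -0.67, -1.14 and -1.34 with NEXN-S437E. NEXN-WT replicate 1 was again the highest array (log2 difference -2.54, SE 0.48, adjusted p = 0.126; -1.95 without it, adjusted p = 0.0309). *Mmp3*, a metalloproteinase gene, differed by -0.86 (adjusted p = 0.214; -0.55 without NEXN-WT replicate 1) and *Ccnd1*, which codes for cyclin D1, by 0.46 (adjusted p = 0.241). *Nqo1* differed by 0.28 (adjusted p = 0.325). Dimmer probes of *Tgfb1* (-0.67, unadjusted p = 0.0106), *Cd44* (-0.84, unadjusted p = 0.0490) and *Vegfa* (0.29, unadjusted p = 0.0463) passed where the brightest did not. The median of the list was 0.05, and -0.021 without NEXN-WT replicate 1.

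Of 8 hypertrophy markers, 4 were lower and 1 was higher at the unadjusted p, against 8.57% and 7.84% of all tested probes. *Nppa*, which codes for atrial natriuretic peptide, differed by -1.47 (adjusted p = 0.0306). It did not pass the adjusted p with slide row as a block or by the methods' t-test, where no probe did. *Myh7*, the beta myosin heavy chain gene, differed by -2.40 (adjusted p = 0.105), *Acta1*, the skeletal actin gene, by -1.36 (adjusted p = 0.149), and *Myh6*, the alpha myosin heavy chain gene, by 0.50 (adjusted p = 0.202). The fourth lower marker was *Ankrd1* (-0.76, adjusted p = 0.225; -0.48 without NEXN-WT replicate 1), named after its values were seen. The probes of *Nppb*, which codes for brain natriuretic peptide, gave -0.04 (the brighter, adjusted p = 0.906) and -0.86 (unadjusted p = 0.00194, adjusted p = 0.144). The count above uses the brighter probe, which did not pass. The same number were lower and higher without NEXN-WT replicate 1, where 13.2% of all tested probes passed in either direction.

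**Figure D4:**
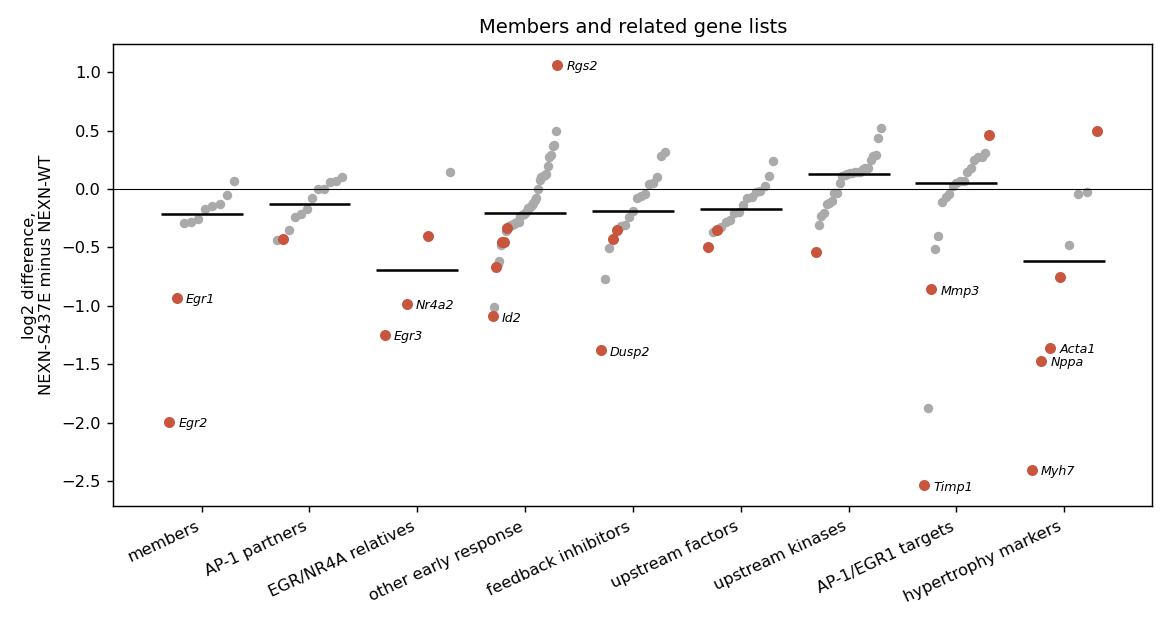
Log2 difference between NEXN-S437E and NEXN-WT (y axis) for the 10 tested immediate-early probes and for the tested genes of 8 related lists, 1 probe per gene (x axis). Red points passed an unadjusted p of 0.05 and black lines are medians; *Zfp36l1* is drawn by its brighter probe. *Rgs2* is the only red point above a 2-fold increase, and the kinases have 1 red point of 26.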

How the data were processed

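RNA from 6 hearts was hybridised in a single colour (Cy3) to Agilent SurePrint G3 mouse arrays. The authors extracted the arrays with Agilent Feature Extraction 10.7.1.1, which subtracts background, and deposited these intensity values unnormalized, with a series table of normalized log2 values whose 6 columns have identical distributions. The normalization software was not given in the sources used here.

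Control and outlier spots were left out, spots of a probe were averaged, and each array's 75th percentile over probes well above background on all 6 arrays was subtracted on the log2 scale. Probes detected (well above background) throughout either group, 22998 in all, were compared with limma 3.58.1 (lmFit, eBayes) in R 4.3.3, adjusted by Benjamini-Hochberg over all of them. The test was checked on simulated data. Figures used Python 3.11.15 and matplotlib 3.10.9, and the number of arrays limits the precision.

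Probe coordinates are on mm9; exon and UTR positions were not looked up for that build. A list gene is represented by its brightest tested probe. Named are all members and, in each pathway list, the 4 genes of smallest p and those past 2-fold with an unadjusted p of 0.05; cell type markers and dimmer probes were named after their values were seen. The members and lists were chosen with earlier results of these data known. Alternatives were other scalings, background corrections, filters, blocks and weights, the methods' t-test and leaving out each array.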

Additional observations from a re-analysis of the deposited data

How the results depend on the processing

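No member probe passed an adjusted p of 0.05 under any of 18 alternatives. The log2 differences of *Egr2* (-2.43 to -1.29) and *Egr1* (-1.14 to -0.52) kept their sign under all 18. One member passed 2-fold with an unadjusted p, 2 without a filter on dim probes, 0 with slide row as a block, 0 by the methods' t-test, and 1 to 2 when 1 array was left out. Without a filter the 6 dim member probes were tested too, and the second to pass was the dim *Ier2* probe, well above background on 0 of 6 arrays, with means of -8.30 for NEXN-WT and -7.23 for NEXN-S437E, so the 2 lie in opposite directions. The count without overlap was 2 or 3, the third being a *Jund* probe.

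Of 180 single-probe comparisons, 16 changed sign, in probes past no threshold with all arrays. One of them, *Junb*, passed the unadjusted p without NEXN-S437E replicate 1 (-0.43, adjusted p = 0.295). *Fos* was 0.21 with array weights, 0.033 with normexp and -0.63 to 0.10 with 1 array left out, above 0 without NEXN-WT replicate 1. *Jun* was -0.0079 with the deposited values, -0.0089 with quantile normalization, -0.064 with slide row as a block and -0.067 to 0.17 with 1 array left out, below 0 without replicate 3 of either group. *Nr4a1* was 0.025 with the percentile over all probes, 0.49 with slide row as a block and -0.32 to 0.11 with 1 array left out, above 0 without NEXN-S437E replicate 2 or 3 or NEXN-WT replicate 1. With slide row as a block *Ier2* was 0.061, *Junb* 0.031 and the first *Jund* probe 0.091. The cause was not tested.

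The labels do not say that equal replicate numbers mark pairs. Deviations of same-numbered arrays from their group means correlated at -0.15, -0.03 and -0.18. Deviations from a mean of 3 arrays depend on one another, so these values cannot exclude a pairing. With the replicate block 0 members passed the adjusted p and 1 the 2-fold threshold, and 12 probes of the array passed the adjusted p in place of 34. That count was 18 with the filter on all 6 arrays, 6 with none, 0 with slide row as a block, 485 with array weights, 0 by the methods' t-test (3119 at its unadjusted p) and 6 to 127 with 1 array left out. The 590 probes past 2-fold became 176 with normexp, 1948 with no filter, 416 by the t-test, and 377 and 920 without NEXN-WT replicates 1 and 3. Normexp moved the median difference of all probes from 0.01 to 0.12.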

Other observations

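The likeness measure was also applied to *Egr2*, a choice made after its values were seen. The genes with the nearest centred levels over the 6 arrays were *Mmp2*, a gelatinase of the extracellular matrix, *Svep1*, *Mdk*, which codes for the growth factor midkine, *Ddah1* and *Pamr1*, with root mean square differences of 0.18 to 0.20 log2 units. *Mmp2* had levels of 2.88, 1.15 and 1.22 with NEXN-WT and of 0.12, -0.20 and -0.18 with NEXN-S437E. As for *Egr2*, NEXN-WT replicate 1 was the highest array and the groups did not overlap. Without that array the log2 differences of the 5 genes were -1.62 (*Pamr1*) to -1.13 (*Svep1*). The genes were chosen for levels like those of *Egr2*, so their differences are a description and were not tested.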
